A study of Caenorhabditis elegans with 4 samples.

Results

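The nhr genes of Caenorhabditis elegans encode nuclear hormone receptors, and their transcripts were measured in second-stage (L2) larvae. They were chosen by name: every array probe that the platform's annotation assigns to a single gene whose symbol starts with nhr-. The rule gave 256 of 21632 probes, for 235 genes, of which 21 had more than 1 probe. A further 3 probes shared between an nhr gene and another gene were left aside. Values on at least 3 arrays were required for the test, which 234 of the 235 genes met (227 on all 4 arrays and 7 on 3), among 19941 features tested in the series. The remaining gene, nhr-208, had values in preps 1 and 4 only, at -0.33 and 0.13.

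The study holds a single group of 4 RNA preparations, preps 1 to 4, from wild-type L2 larvae, with no mutation or treatment named in the labels. Each prep was hybridised on its own 2-colour DNA array together with a wild-type RNA described as a mixed reference; the sources used here do not give its make-up. Whether separate cultures were used for the preps is not in the labels, so the p-values cover the spread among these 4 samples alone, and that spread may be technical. Every value below is a log2 ratio, positive where L2 is likely higher than the reference; this direction follows the order of the channels in the labels, which name no dyes. These were whole animals, so fewer cells of a type and less RNA per cell cannot be told apart.

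A nuclear receptor binds DNA through a zinc finger domain and, in many cases, a small lipid-like molecule through a second domain that then recruits coregulators. Nematodes have an unusually large set of these receptors. A few have recognisable relatives in insects and vertebrates, while most belong to an expansion related to the vertebrate receptor HNF4. In the larva, members are known for timing the molts, adjusting fat and amino acid breakdown to the diet, and responding to toxins, low oxygen and pathogens. For most members no role is given here.

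Prep 3 stood somewhat apart from the others. Over all probes its correlation with the other preps was 0.476 to 0.564, against 0.670 to 0.728 among preps 1, 2 and 4. Over the 227 nhr genes on all 4 arrays, prep 3 was the lowest value in 52 (22.9%) and the highest in 75 (33.0%). Over all features these shares were 29.0% and 34.1%. By this count prep 3 was not the only one to differ. Prep 4 was the lowest in 28.6% and the highest in 14.1% of these nhr genes, against 20.7% and 21.9% of all features. All 3 measured yolk genes, made by the adult intestine, and all 9 oocyte and germ line genes on a fixed list were lower than the reference, with list medians of -5.42 and -3.66. The germ line list median ranged from -4.19 to -2.63 over the preps. These lists also bear on the direction of the ratio, which the labels do not settle, so they are no separate check of the stage. Whether the reference held RNA from the adult germ line, and what part that would have in any nhr ratio, was not tested.

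Of 234 nhr genes tested, 169 (72.2%) had a mean between -0.5 and 0.5, where 68.1% of all features did. The interquartile range ran from -0.23 to 0.40, and the median was 0.13, against 0.01 for all features. By prep the nhr median was 0.016, 0.15, 0.13 and 0.019 in preps 1 to 4. Thus it lay near that of all features in preps 1 and 4, and above it in preps 2 and 3 only. With limma and an adjusted p under 0.05, 11 nhr genes rose and 9 fell, which is 8.55% of those tested, where the background over all features was 14.7%. The share that rose, 4.70%, stood near its background of 4.85%. The share that fell, 3.85%, stood below its background of 9.87%. Means beyond 1 in either direction were found for 9 nhr genes (3.85%), against 10.9% of all features. An unadjusted p under 0.05 was found for 77 nhr genes (32.9%), close to the 32.3% of all features. The SD over preps had a median of 0.32 among nhr genes and 0.37 among all features. On all 4 arrays, 64 nhr genes were positive throughout and 47 negative throughout, which together is 48.9% of 227, against 42.8% of all features.

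**Figure D1:**
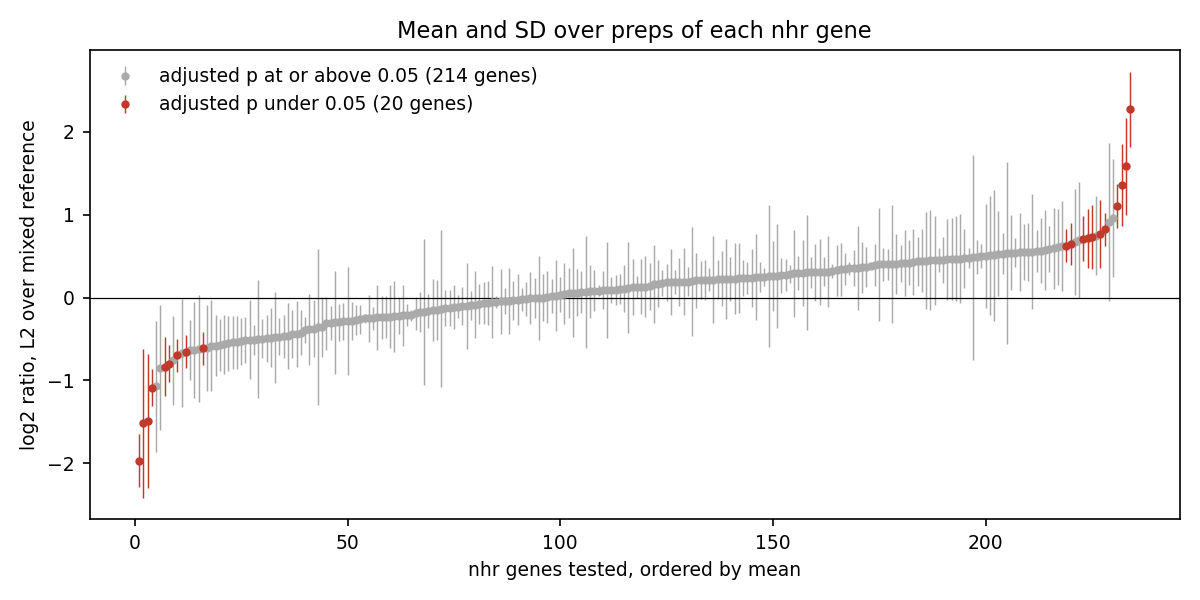
Mean log2 ratio (vertical axis, L2 over mixed reference) of the 234 nhr genes tested, ordered along the horizontal axis, with bars showing the SD over preps (n = 4, or 3 for 7 genes). The 20 genes with an adjusted p under 0.05 lie mostly at the 2 ends, from -1.97 to 2.27, and most others lie between -0.5 and 0.5.

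Of the nhr genes tested, nhr-73 (sequence name C27C7.4) had the highest mean ratio of L2 over the reference. Its log2 ratios were 1.95, 2.93, 1.97 and 2.23 in preps 1 to 4, all high, with a mean of 2.27 ± 0.46 (SD, n = 4), or 4.83-fold higher (adjusted p = 0.00166). Next came nhr-259 (C27C7.8), with 1.66, 2.03, 0.73 and 1.91, lowest in prep 3, a mean of 1.58 ± 0.59 and a 3.00-fold rise (adjusted p = 0.0088). These genes are direct neighbours on chromosome I in the WBcel235 assembly, with no other protein-coding gene or pseudogene between them. The array's probe sequences were not used here, so hybridisation of one transcript to both probes was not tested. The third was nhr-244 (ZK1025.6), at 0.90, 1.88, 1.69 and 0.96, again positive on every array, with a mean of 1.36 ± 0.50 (adjusted p = 0.0105).

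The fourth was nhr-8 (F33D4.1), a relative of the dauer receptor DAF-12 that is needed for resistance to xenobiotics and for sterol balance. Its ratios were 0.97, 1.28, 0.80 and 1.37 in preps 1 to 4. The mean of 1.11 ± 0.27 was a 2.15-fold rise (adjusted p = 0.00851), with little spread between the preps. The other 7 genes that rose had means between 0.63 and 0.83, and each was positive in all 4 preps. They were nhr-177 (0.83 ± 0.20), nhr-251 (0.77 ± 0.41), nhr-45 (0.73 ± 0.39), nhr-232 (0.72 ± 0.36), nhr-79 (0.71 ± 0.27), nhr-31 (0.64 ± 0.25) and nhr-217 (0.63 ± 0.20). Their adjusted p lay between 0.0183 (nhr-177) and 0.0499 (nhr-45).

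The nhr gene with the lowest mean ratio was nhr-57 (T05B4.2), a gene known to be switched on in low oxygen through the hypoxia factor HIF-1. Its ratios were -2.22, -2.20, -1.92 and -1.53 in preps 1 to 4, low on every array, with a mean of -1.97 ± 0.32 (n = 4), or 3.91-fold lower in L2 (adjusted p = 0.00158). It was covered by 2 probes, whose means of -2.0 and -1.93 lay closer together than the preps did. Less uniform were nhr-21 (F21D12.1), with -1.65, -1.40, -0.41 and -2.61 and a mean of -1.52 ± 0.90 (adjusted p = 0.0289), and nhr-290 (C29G2.5), with -2.24, -2.08, -1.06 and -0.56 and a mean of -1.49 ± 0.81 (adjusted p = 0.0237). Both were negative in all 4 preps, but their lowest and highest preps differed by more than their means. By contrast nhr-193 (F57G8.6) varied little, at -1.41, -1.0, -0.90 and -1.04, with a mean of -1.09 ± 0.22 (adjusted p = 0.00771). The other 5 that fell were nhr-18 (-0.83 ± 0.36), nhr-19 (-0.80 ± 0.22), nhr-152 (-0.69 ± 0.20), nhr-90 (-0.65 ± 0.20) and nhr-143 (-0.61 ± 0.19), with adjusted p between 0.0223 (nhr-19) and 0.0446 (nhr-143).

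**Figure D2:**
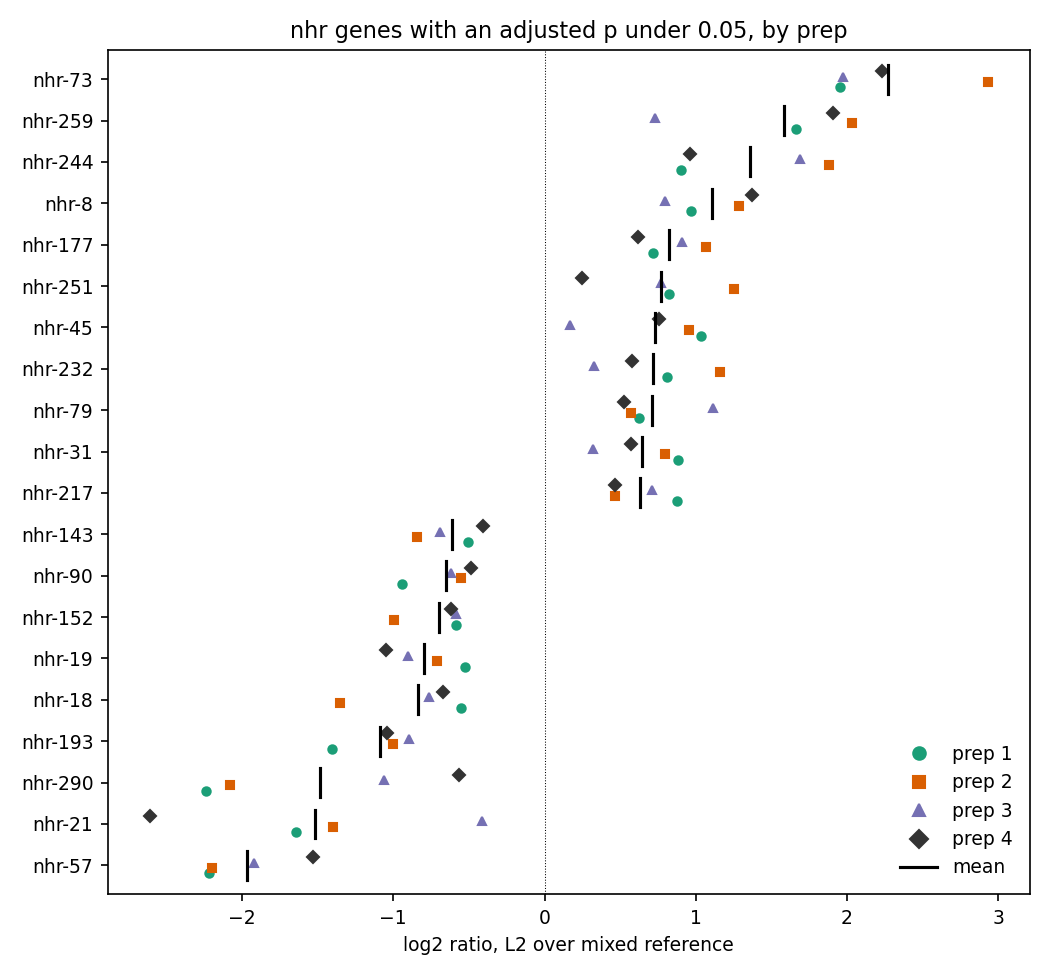
Log2 ratio (horizontal axis, L2 over mixed reference) in each of the 4 preps for the 20 nhr genes with an adjusted p under 0.05, with a black bar at the mean. All 4 preps lie on the same side of 0 for each gene, and the means of nhr-57 and nhr-73 lie farthest out.

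These calls differed in whether they held when a prep was left out. Such a fit has fewer arrays, so lost power and dependence on that prep cannot be told apart. Only nhr-73, nhr-259, nhr-244, nhr-8, nhr-193 and nhr-57 passed the test in each of the 4 fits that left out a prep. The number of nhr genes that passed was 7 without prep 1, 6 without prep 2, 18 without prep 3 and 7 without prep 4. These were 3.06%, 2.59%, 7.93% and 3.08% of those tested. Only 6, 6, 14 and 7 of them were among the 20 called with all preps, and any others were newly called. Over all features the shares in these fits were 5.99%, 6.21%, 16.6% and 8.75%, against 14.7% with all preps. Tested against a fold of 1.5 in place of no change, nhr-73 and nhr-57 passed, 0.855% of the nhr genes, where the background was 3.27%.

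Of 14 listed receptors with relatives outside nematodes, 12 were tested, with a median of 0.13. Of these 1 (nhr-8) rose and 0 fell, where 4.85% of all features rose and 9.87% fell. Counts in this and the other short lists were not tested against such shares. The lowest of the 12 was nhr-64, an HNF4-like receptor linked to fat storage, at -2.21, -0.39, -0.78 and -0.89 in preps 1 to 4. All were negative but prep 1 was far below the rest, and the mean of -1.07 ± 0.79 missed the threshold (adjusted p = 0.0596). It passed with the month as a block (0.0388), array weights (0.0332) and quantile normalization (0.0499). In these fits 19.0%, 21.6% and 16.9% of all features were called, against 14.7% in the main fit. The month is read from dates in the array titles and sets preps 1 and 2 apart from preps 3 and 4. The correlation fitted within months is not given here, so passing with this block is no added support for nhr-64. The HNF4-like receptor nhr-69 was at -0.30 ± 0.23. The tailless relative nhr-67, which acts in the anchor cell and in neurons, was at 0.44 ± 0.29 and positive in all preps (adjusted p = 0.133). Values for nhr-111 (0.23 ± 0.43) and for the DAF-12 relative nhr-48 (-0.21 ± 0.37) changed sign between preps.

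The receptors tied to the molts gave 0 calls of 4 with limma (all features 14.7%), and 0 at an unadjusted p under 0.05 (all features 32.3%). The ROR relative nhr-23, needed for molting, was at 1.09, 0.37, -0.34 and 0.68 in preps 1 to 4, negative in prep 3 only, with a mean of 0.45 ± 0.60 (adjusted p = 0.253). The FTZ-F1 relative nhr-25, which acts in the epidermis and in molting, was at 0.56, 0.44, -0.66 and 0.71, again negative in prep 3 only, with a mean of 0.26 ± 0.63 (adjusted p = 0.498). Without prep 3 their means were 0.72 (adjusted p = 0.0639) and 0.57 (adjusted p = 0.0591), neither past the threshold. The Rev-erb relative nhr-85, which takes part in larval timing, ran the other way, at -0.38, -0.25, 0.30 and -0.63, positive in prep 3 only (mean -0.24 ± 0.39). In nhr-41, a relative of the vertebrate receptors TR2 and TR4, prep 2 was the odd value, at -0.62 against 0.20, 0.22 and 0.29 in preps 1, 3 and 4.

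Cuticle and molting genes that follow the larval cycle were set beside these receptors. Their median over 13 genes was 1.36, 1.09, -0.47 and 2.20 in preps 1 to 4, so prep 3 was the lowest and negative, as for nhr-23 and nhr-25. Of the 13, 4 rose (dpy-5, dpy-13, nas-36 and rol-6) and 0 fell, where 4.85% of all features rose. Without preps 1, 2, 3 and 4 the number that rose was 0, 1, 9 and 1, where 1.48%, 1.68%, 7.07% and 2.53% of all features did. A correlation over 4 preps was not computed, and whether the preps differed in their place in the molting cycle was not tested.

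**Figure D3:**
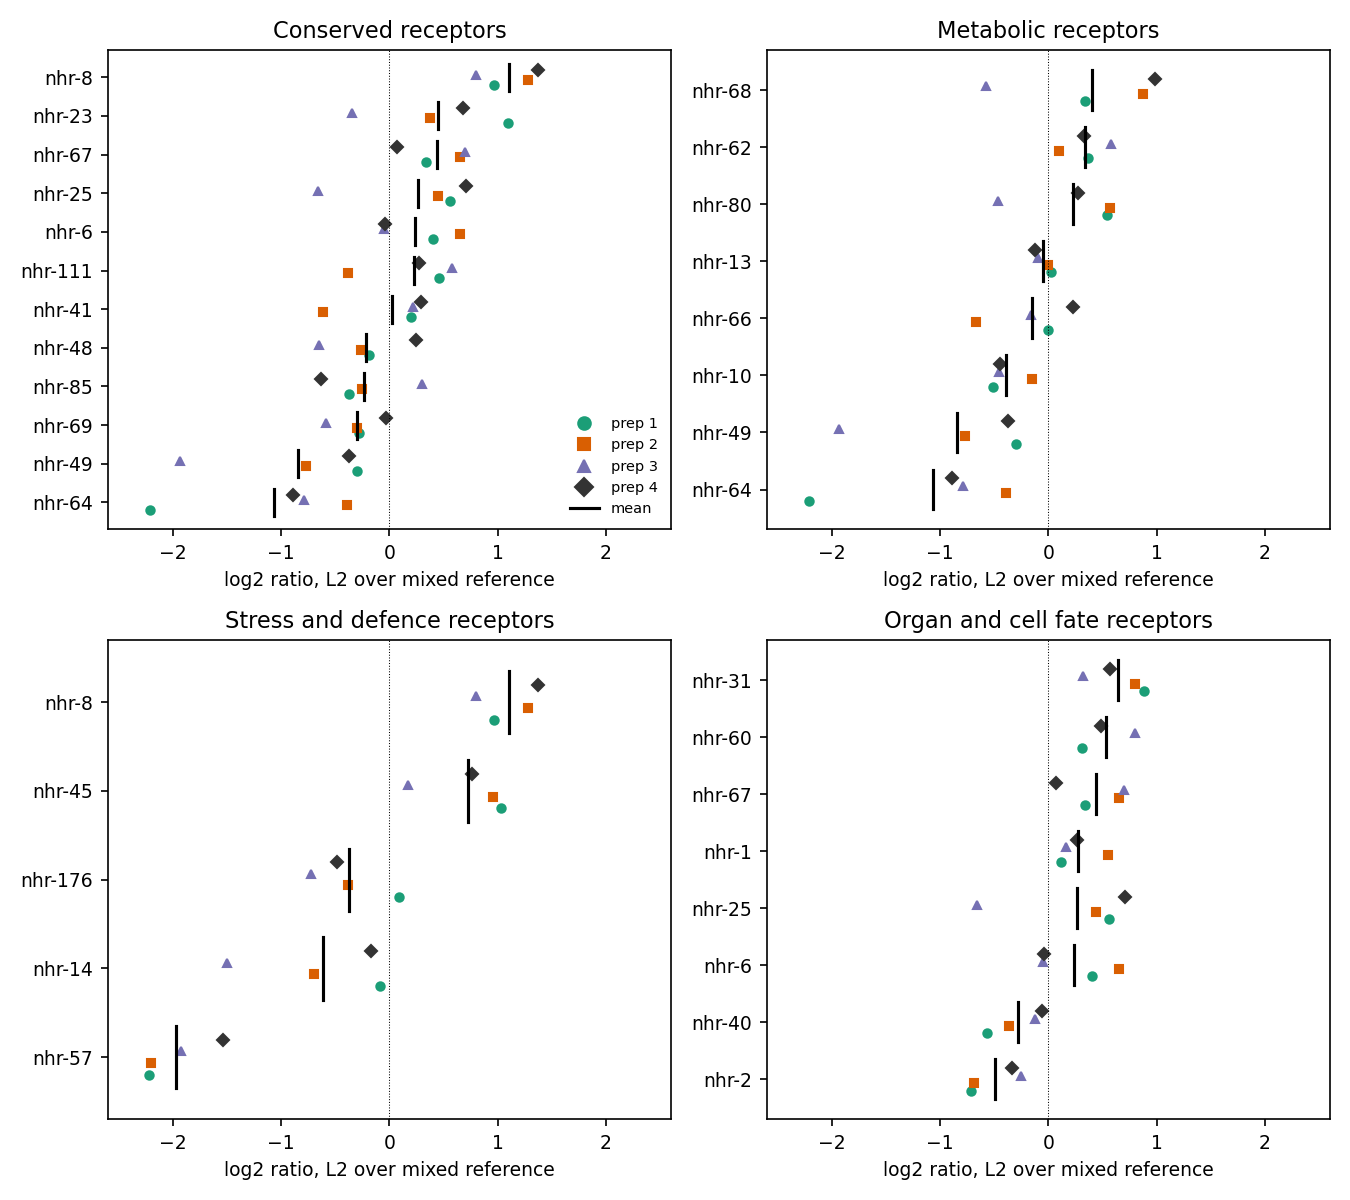
Log2 ratio (horizontal axes, L2 over mixed reference) in each prep for the nhr genes of 4 lists of known roles, with a black bar at the mean; nhr-60 has no value in prep 2. All points of nhr-57 lie below -1.5 and all points of nhr-8 above 0.7.

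Of 9 receptors known for fat, propionate or dietary responses, 8 were tested and 0 passed (all features 14.7%), with a median of -0.10. At an unadjusted p under 0.05 there were 3, nhr-64, nhr-49 and nhr-10 (all features 32.3%). The fat metabolism receptor nhr-49 was at -0.30, -0.77, -1.93 and -0.37, negative throughout and lowest in prep 3, with a mean of -0.84 ± 0.76 (adjusted p = 0.0971). Its partners nhr-80, nhr-13 and nhr-66 were at 0.23 ± 0.48, -0.05 ± 0.07 and -0.15 ± 0.38. Thus nhr-13 hardly moved in any prep, whereas nhr-80 was negative in prep 3 only. The propionate shunt receptors were nhr-10 at -0.51, -0.15, -0.45 and -0.45, negative in all preps and highest in prep 2, with a mean of -0.39 ± 0.16 (adjusted p = 0.130), and nhr-68 at 0.34, 0.87, -0.58 and 0.99, with a mean of 0.41 ± 0.71. The receptor nhr-62, needed for the response to dietary restriction, was at 0.34 ± 0.19 and positive in all preps (adjusted p = 0.181).

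Of 7 fat metabolism genes known to depend on nhr-49, 6 fell and 0 rose, with a median of -1.28, where 9.87% of all features fell. The list's median was -1.71, -1.56, -1.04 and -0.99 in preps 1 to 4, so prep 3 was not the lowest, unlike in nhr-49. The acyl-CoA synthetase gene acs-2 was at -2.74, -2.30, -3.83 and -3.30 in preps 1 to 4, with a mean of -3.04 ± 0.67, or 8.24-fold lower (adjusted p = 0.00144). The dehydrogenase gene hacd-1 was at -2.81 ± 0.62, and the fatty acid desaturase genes fat-5, fat-6 and fat-7 at -1.28 ± 0.83, -1.32 ± 0.39 and -1.0 ± 0.09. The glyoxylate cycle gene icl-1 was at -1.28 ± 0.80, while cpt-5, a carnitine palmitoyltransferase gene, was at 0.10 ± 0.24. The number that fell was 4 without prep 1 or 2 and 5 without prep 3 or 4, where 4.51%, 4.53%, 9.55% and 6.21% of all features fell. Without prep 1 or 2 the calls of fat-5 (0.118 and 0.143) and icl-1 (0.107 and 0.0502) ended, as did that of fat-5 without prep 3 (0.0599) and that of icl-1 without prep 4 (0.076). Those of acs-2, hacd-1, fat-6 and fat-7 held in each fit that left out a prep.

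Of 5 propionate shunt genes, which depend on nhr-10 and nhr-68, 2 rose and 0 fell, with a median of 1.33, where 4.85% of all features rose. That pathway breaks down propionate when vitamin B12 is short. The acyl-CoA dehydrogenase gene acdh-1 was at 3.16, 4.38, 1.03 and 2.53 in preps 1 to 4, with a mean of 2.78 ± 1.39 (adjusted p = 0.014), and ech-6 was at 1.88 ± 0.64 (adjusted p = 0.00596). Both were positive throughout and lowest in prep 3. Values for hphd-1 (1.33 ± 0.99, adjusted p = 0.0545) and hach-1 (0.93 ± 0.77, adjusted p = 0.0811) missed the threshold, and alh-8 was at -0.55 ± 0.81. The list's median was 0.0042 in prep 3 and 1.20 to 2.32 in the others, and nhr-68 was also lowest in prep 3, while nhr-10 was not. Without prep 3, 4 of the 5 rose, where 7.07% of all features did. Without prep 1 only ech-6 rose (acdh-1 at adjusted p = 0.0557), where 1.48% of all features did.

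**Figure D4:**
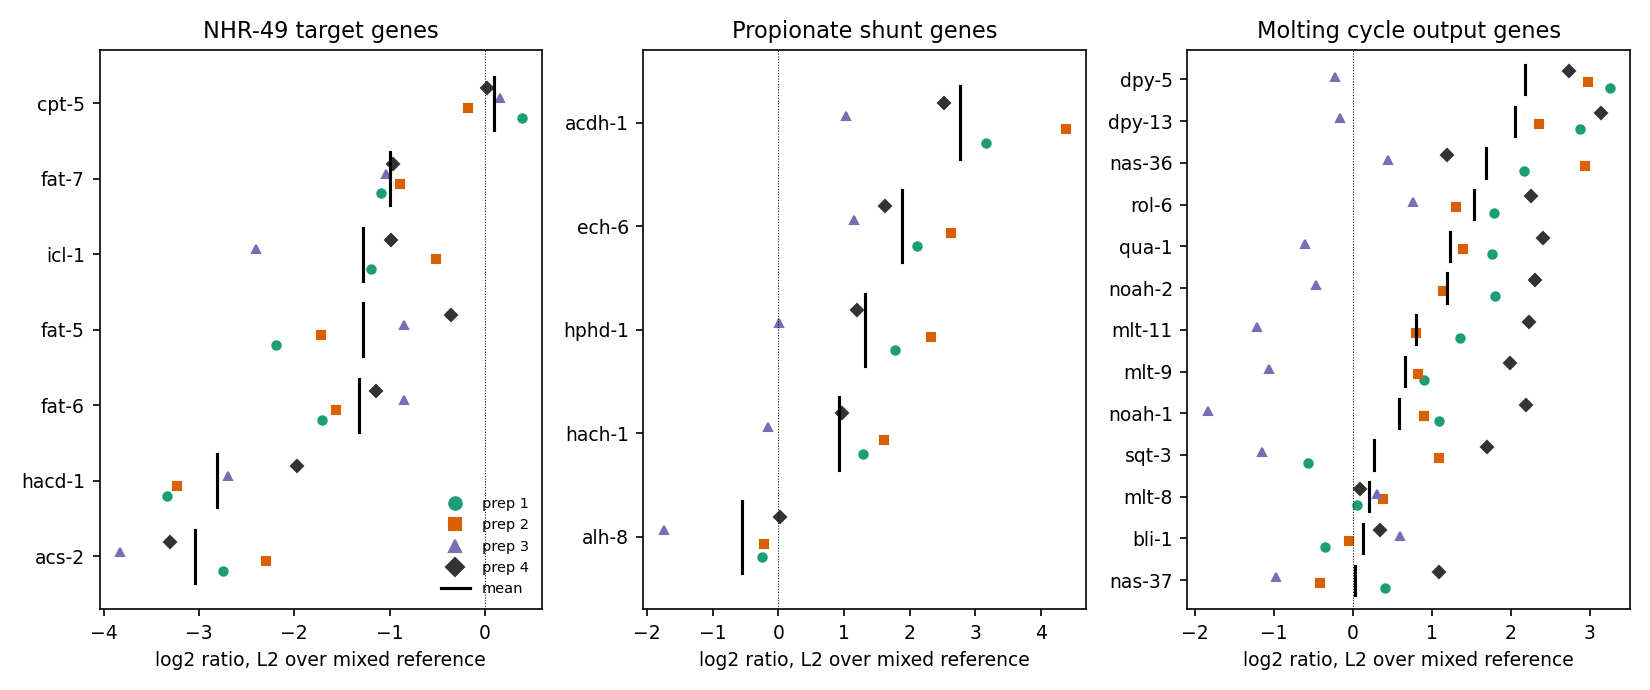
Log2 ratio (horizontal axes, L2 over mixed reference) in each prep for genes known to depend on nhr-49, for propionate shunt genes and for molting cycle genes, with a black bar at the mean. All points of acs-2 and hacd-1 lie below -1.9, all points of acdh-1 and ech-6 lie above 1, and prep 3 is the lowest point for most of the molting cycle genes.

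Of 5 tested receptors known for stress and defence, nhr-8 and nhr-45 rose and nhr-57 fell, where 4.85% of all features rose and 9.87% fell. The list's median was -0.38, or -0.081 after centring within runs of neighbouring probes. The ratios of nhr-45 were 1.03, 0.96, 0.17 and 0.76, positive throughout and lowest in prep 3. Its call ended without prep 1 (adjusted p = 0.176), 2 (0.167) or 4 (0.134). It also ended with run centring (0.0924), single probes (0.052), values on at least 2 arrays (0.051) and a robust fit (0.0502). The intestinal receptor nhr-14, which links iron uptake with defence, was at -0.09, -0.70, -1.5 and -0.17, lowest in prep 3, with a mean of -0.61 ± 0.65 (adjusted p = 0.156). The receptor nhr-176, which responds to the drug thiabendazole, was at -0.38 ± 0.34.

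Of 8 receptors known for a role in a single organ, tissue or the embryo, 1 rose and 0 fell (all features 4.85% and 9.87%). The list's median was 0.27. The gene that rose, nhr-31, is required for growth of the excretory cell, and was at 0.88, 0.80, 0.32 and 0.57 (adjusted p = 0.0458), though not without prep 1 (0.172), 2 (0.153) or 4 (0.12), nor with run centring (0.138, mean 0.49). The early embryonic receptor nhr-2 was at -0.71, -0.69, -0.25 and -0.33, negative in all preps, with a mean of -0.50 ± 0.24 (adjusted p = 0.0873). It passed with run centring (0.0269) and array weights (0.0460). The spermatheca receptor nhr-6 was at 0.24 ± 0.35 and the muscle receptor nhr-40 at -0.28 ± 0.23. For nhr-60, which had no value in prep 2, the mean was 0.53 ± 0.25 (n = 3, adjusted p = 0.128). The receptor nhr-1, which acts in muscle at the neuromuscular junction, was at 0.27 ± 0.20.

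Nuclear receptors that carry other names gave 0 calls of 5 with limma (all features 14.7%), and 0 at an unadjusted p under 0.05 (all features 32.3%). Their means ran from -0.19 for fax-1, a receptor of neuron identity, to 0.33 ± 0.44 for daf-12. Like nhr-23 and nhr-25, daf-12 was negative in prep 3 only (0.39, 0.84, -0.23 and 0.33). Among 5 cofactors, din-1, a corepressor of DAF-12, rose at 0.62, 0.70, 1.08 and 0.75 (mean 0.79 ± 0.21, adjusted p = 0.0219). Its call held without prep 3 (0.0352) but not without prep 1 (0.0699), 2 (0.0708) or 4 (0.0746). The Mediator subunit gene mdt-15, a coactivator for NHR-49, was at -0.14, -0.31, -1.64 and 0.07, lowest in prep 3, as was nhr-49 (mean -0.51 ± 0.77, adjusted p = 0.276).

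The 3 nhr genes with the largest SD over 4 arrays were nhr-72, nhr-17 and nhr-229. For nhr-72 the ratios were -0.51, 1.31, 1.39 and 1.47, so that prep 1 alone was negative. The mean was 0.91 ± 0.95 (adjusted p = 0.126) and became 1.39 without prep 1 (adjusted p = 0.016). In that fit 5.99% of all features were called. Because nhr-72 was picked for an SD that prep 1 makes large, the p without prep 1 is no support for a rise. For nhr-17 they were -0.80, 2.16, 0.21 and 0.36, with prep 2 highest and prep 1 negative. For nhr-229 they were 2.15, 0.02, 0.27 and -0.29, with prep 1 highest and prep 4 negative.

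The 188 nhr genes not named by the rule lay between -0.76 and 0.96, with a median of 0.12, and since the rule had named every gene that passed, none of these could. An unadjusted p under 0.05 was found for 50 (26.6%), against 32.3% of all features. That background includes features that passed, whereas every nhr gene that passed had been taken out of the 188. Of the 188 genes, 22 had a mean above 0.5 and 17 a mean below -0.5. Their SDs ran from 0.03 to 0.95.

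The family is unevenly spread over the genome. In the WBcel235 gene table, 149 of the 234 tested genes lie on chromosome V and 85 elsewhere. Of the 149 on chromosome V, 4 rose and 7 fell, 76.5% lay between -0.5 and 0.5, and the median was 0.12. Of the 85 elsewhere, 7 rose and 2 fell, 64.7% lay in that range, and the median was 0.13. Over all features 4.85% rose and 9.87% fell, and a difference between the chromosomes was not tested. Of 10 tested members that the newer table lists as pseudogenes, 0 passed, where 14.7% of all features did.

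Many nhr genes sit side by side. In the table's order of protein-coding genes and pseudogenes, 144 nhr genes formed 47 runs of at least 2 direct neighbours, 34 of them on chromosome V, and 112 of these genes were tested. Over 66 pairs of neighbouring tested nhr genes, the median absolute difference of means was 0.24, against 0.42 for any pair of nhr genes and 0.48 for 11555 neighbouring pairs of tested genes of all kinds. The means had the same sign in 45 of 66 pairs (68.2%), against 51.4% of all nhr pairs and 56.5% of neighbouring pairs of all kinds. Pairs in a run share genes, so these are descriptions without a test.

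The longest run, of 8 genes on chromosome V from nhr-186 to nhr-124, was all tested. Every mean was positive, from 0.02 (nhr-158) to 0.46 (nhr-186), with 0 called by limma. In the run from nhr-196 to nhr-198, the 4 tested genes had means within a narrow range. They were at 0.51 (nhr-196), 0.49 (nhr-197), 0.42 (nhr-268) and 0.53 (nhr-198), with 0 called. Over all features 14.7% were called, so 0 calls among so few genes is no result about either run. A run of 7 genes held nhr-18, which fell, beside nhr-103 (-0.51 ± 0.18, adjusted p = 0.0725), and its other means lay between -0.25 and 0.12. In the run of 6 around nhr-143, which fell, 5 of 6 means were negative. The neighbours nhr-90 and nhr-250 went apart, at -0.65 and 0.42. Related neighbours may be similar in sequence, and shared hybridisation among them was not tested.

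**Figure D5:**
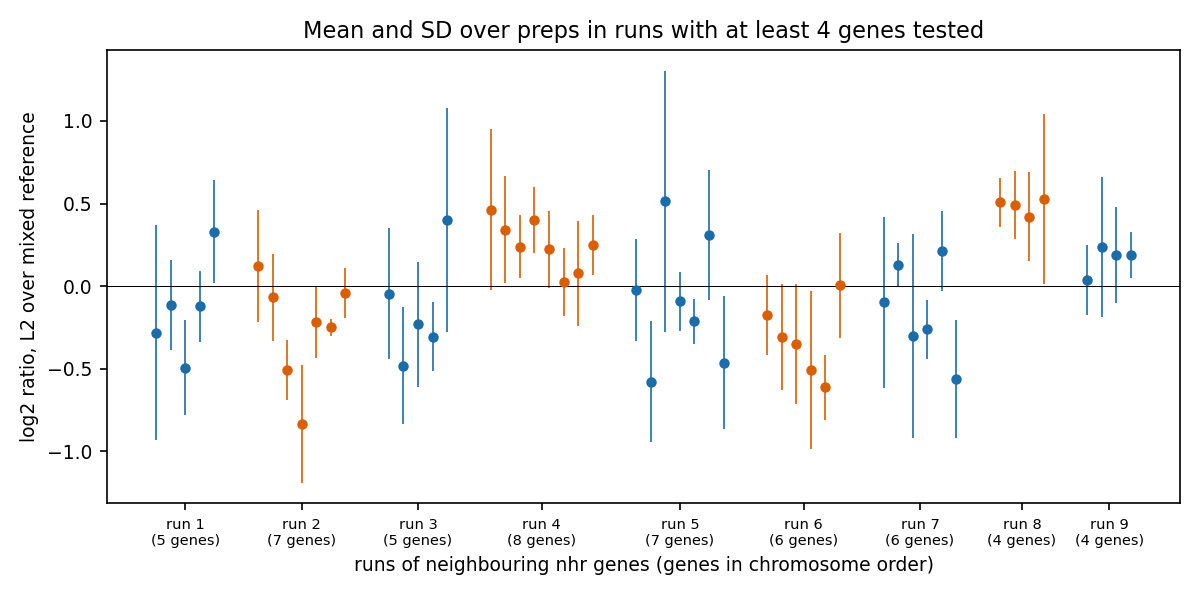
Mean log2 ratio (vertical axis, L2 over mixed reference) with the SD over preps for the tested genes of the 9 runs of neighbouring nhr genes with at least 4 genes tested, in chromosome order. All means of runs 4, 8 and 9 are above 0, and all but 1 in each of runs 1, 2, 3 and 6 are below 0.

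Probes of the same gene give a measure of how exact a single ratio is. Among the 21 nhr genes with more than 1 probe, the probe means differed by a median of 0.37, and by less than 0.5 in 15 genes. Both probes had the same sign in 11 of the 21. Of the nhr genes called in the main fit, only nhr-57 had more than 1 probe, so every other call rests on a single probe. In 4 genes 1 probe passed the test and the other did not (nhr-4, nhr-155, nhr-212 and nhr-262). Over all single probes 14.5% passed. In nhr-262 the probe means were 0.76 (adjusted p = 0.0347) and -0.49 (adjusted p = 0.167). These genes and the runs above were picked out after their values were seen.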

How the data were processed

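The labels name RNA of 4 wild-type L2 preparations, each compared on a 2-colour array with a mixed wild-type reference. The authors deposited log2 ratios; their background correction, normalization, spot filters and dyes are not given here, and no intensities were used, so precision rests on the number of arrays. Each array was centred on its median (deposited medians 0.016 to 0.058), and several probes of a gene were replaced by their mean on each array. Of 21632 probes, 16450 had 1 gene, 247 several and 4935 none. Of 235 nhr genes, 233 matched the WBcel235 gene table by ID, with 0 changed symbols, and 2 by symbol only.

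The mean log2 ratio of every feature with at least 3 values was tested against 0, two-sided, using lmFit and eBayes of limma 3.58.1 in R 4.3.3. P-values were adjusted by Benjamini-Hochberg over all 19941 features, with a threshold of 0.05. The reference counts as 1 control sample, and its own spread is left out. The fit was tested on simulated data. Alternatives were other centrings and scalings, array weights, other array minimums, single probes, a fold of 1.5, a robust fit and leaving out each prep. Another took the month in the array titles as a random block. Leaving out preps for the lists of dependent genes, the stage lists and din-1 was added after seeing the data.

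Members and lists were chosen with earlier results of these data known. Named nhr genes were all tested members of the lists of known roles (27 genes), up to 12 genes at each end among those past the threshold with 1 sign on all 4 arrays (20 genes), and the 3 with the largest SD, 46 in all. Tables and figures used Python 3.11.15, pandas 2.3.3 and matplotlib 3.10.9.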

Additional observations from a re-analysis of the deposited data

Results flagged for a closer look

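In 5 of 45 named nhr genes with 4 values, a single prep lay far from the other 3. This was judged by its gap to the nearest value as a share of the whole range (Dixon's test). Chance flags about 1 in 20 genes that are not picked by their values. Many named genes were picked for passing the test or for a large SD, so that rate does not apply here. No rate over all features is given. The gap's share was 0.921 for nhr-72 (prep 1 at -0.51, the others from 1.31 to 1.47) and 0.919 for nhr-152 (prep 2 at -0.99, the others from -0.62 to -0.58). It was 0.900 for nhr-41 (prep 2 at -0.62), 0.835 for nhr-79 (prep 3 at 1.12, the others from 0.53 to 0.62) and 0.830 for nhr-10 (prep 2 at -0.15, the others from -0.51 to -0.45). The cause was not tested.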

How the results depend on the processing

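The counts of nhr genes called (11 higher, 9 lower) stayed within 1.5 times with deposited values, mean and run centring, scale and quantile normalization, other array minimums, single probes and a robust fit. Array weights gave 15 lower, the month as a block 17 higher and 14 lower, and a fold of 1.5 gave 1 and 1. In these 3 fits 12.8%, 13.2% and 0.855% of nhr genes were called, where 21.6%, 19.0% and 3.27% of all features were. In the main fit the shares were 8.55% and 14.7%. Without a prep the nhr counts ranged from 4 to 9 higher and from 2 to 9 lower. The genes called changed more than their number: run centring shared 14 of the 20, losing nhr-21 (adjusted p = 0.0515), nhr-143 (0.0736), nhr-45, nhr-217 (0.0959), nhr-232 (0.104) and nhr-31, and gained 6. Scale normalization ended the call of nhr-21 (0.0646), mean centring those of nhr-90 (0.0528) and nhr-143 (0.0571), and deposited values that of nhr-143 (0.0511). Medians moved by less than the spread between preps, but over all settings ranged from 0.077 to 0.19 for the nhr genes, 0.024 to 0.19 for conserved, -0.15 to -0.023 for metabolic, -0.53 to -0.081 for stress and 0.19 to 0.34 for organ receptors. Sign changes were seen only in named genes not past the threshold: nhr-13 with mean centring (0.013) and nhr-41 with run centring (-0.072). Without a prep, nhr-17 ranged from -0.075 to 0.91, nhr-41 from -0.066 to 0.24, nhr-66 from -0.28 to 0.020 and nhr-229 from -0.00054 to 0.81. The number that rose without a prep ranged from 1 to 4 for propionate shunt genes and from 0 to 9 for molting cycle genes. Over all features the share that rose in these fits ranged from 1.48% to 7.07%. The cause was not tested. No paired analysis was possible because there is a single group.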
